A study of Mus musculus with 6 samples.

Results

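The nuclear-encoded subunits of the mitochondrial respiratory chain were examined in proprioceptive sensory neurons picked from newborn mice. Members were the rows of the deposited expression table whose gene symbol starts with Nduf, Uqcr or Atp5, starts with Cox followed by a digit from 4 to 8, or is Sdha, Sdhb, Sdhc or Sdhd. The rule found 92 symbols among the 36814 genes of the table, each in 1 row, and used no measured level. Of these, 82 are subunits: 36 of complex I, 4 of complex II, 8 of complex III, 19 of complex IV and 15 of complex V. The other 10 matched by name only. They include the complex I assembly factors Ndufaf1, Ndufaf2, Ndufaf3 and Ndufaf4, the supercomplex factor Cox7a2l and the Cox4i1 neighbour Cox4nb. The rest are the factor B relatives Atp5s and Atp5sl, the latter named Dmac2 in the GENCODE reference, and the Atp5l copies Atp5l-ps1 and Atp5l2.

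RNA was sequenced from 6 libraries, 3 from proprioceptors supplying the tibialis anterior muscle (TA) and 3 from proprioceptors supplying the gastrocnemius muscle (GS). All 6 came from Pv::YFP reporter mice, whose transgene marks parvalbumin neurons. The tracer ctb-555 was put into either muscle at postnatal day 0. Cells that had taken it up were isolated manually at postnatal day 1 and combined, 25 to 30 neurons to a library. Neither group had another genotype or treatment. The labels call the libraries biological replicates, but the sources used here do not say that they came from separate animals. The p-values therefore measure only the spread between these libraries.

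The respiratory chain passes electrons from NADH (complex I) and succinate (complex II) through complex III to oxygen at complex IV. The proton gradient this builds drives ATP synthesis by complex V. Most subunits are encoded in the nucleus and imported, while the mitochondrial chromosome encodes the membrane core of complex I, cytochrome b, the catalytic core of complex IV and part of the complex V membrane domain. Several complex IV subunits have tissue forms, among them heart and skeletal muscle, lung and testis forms, and the c-ring of complex V is encoded by 3 genes for the same mature protein. Large sensory neurons with long myelinated axons depend on this pathway for ion pumping and axonal transport.

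Levels are given as deposited RPKM, that is, net reads per kilobase of gene and scaled to the library's total reads. RPKM corrects for gene length, but orders between genes below hold for the lengths in the table, which were 0.654 to 12.4 times those of the GENCODE reference transcripts over the 82 subunits. Where recomputing a level on the reference length, a choice made after low values were seen, turned an order, this is said beside it. The library totals behind RPKM ran from 13167570 to 32977601, and net reads assigned to genes from 7038296 to 21125960. Markers of proprioceptors and large sensory neurons, 13 genes, summed to between 7944 and 11051 RPKM in the 6 libraries, most of it from the neurofilament genes Nefl and Nefm. Within that list the reporter's own gene, Pvalb, read 4.26, 10.4 and 31.3 RPKM in GS and 69.0, 93.5 and 47.8 RPKM in TA, and Etv1, a transcription factor of proprioceptors, read 313, 321 and 323 RPKM in GS and 217, 264 and 202 RPKM in TA. The muscles did not overlap in either gene, Pvalb lying higher in TA and Etv1 higher in GS. Their limma adjusted p were 0.168 and 0.524. Of the 13 markers, 2 (Pvalb and Whrn) had all TA values above all GS values, and 1 (Etv1) the reverse. Over all 10828 genes tested these shares were 13.1% and 3.48%. By sum, markers of other cells were lower: 10 glial genes summed to 78.2 to 192 RPKM and 8 nociceptor genes to 29.1 to 171 RPKM. Single markers did not all follow that order. Six-library means were 81.8 RPKM for S100b and 42.8 for Fabp7 among glial genes, and 49.4 for the nociceptor gene Calca. Those of Pvalb, Ntrk3, Runx3 and Etv1 were 42.7, 38.4, 16.1 and 273 RPKM. For 17 skeletal muscle markers the sum was 334 RPKM in TA replicate 3 alone, and 0.320 to 5.35 RPKM elsewhere. For 9 connective tissue and vascular markers it was 28.7 RPKM in TA replicate 3 and 0.423 to 6.29 RPKM elsewhere. For 8 red blood cell and immune markers it was 34.2 RPKM in TA replicate 3 and 0.505 to 16.9 RPKM elsewhere. The mitochondrial chromosome's 38 genes had 0 in all 6 libraries, so nothing is said here of the mitochondrially encoded subunits, and a gene with no value above 0 is called listed at 0, not absent.

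Respiratory chain subunits were among the more abundant transcripts of these neurons. Of the 92 symbols, 80 entered the test, with no value below 0 and a mean of at least 1 RPKM over the 6 libraries. The median of their mean levels was 36.0 RPKM, against 4.76 RPKM for all 10828 genes tested, and 93.1% of tested genes lay below that median. A mean of at least 100 RPKM was reached by 11 of the 80 (13.8%) and by 168 of all tested genes (1.55%). Levels of the members also varied less between libraries, with a median coefficient of variation of 33.0% against 52.3% over all tested genes. Means under 10 RPKM were found for 13 of the 80 members and 7752 of the 10828 tested genes. Genes of matched level were not compared, so the part of level in this difference was not tested. These figures describe the members that passed the filter and set no test. The 12 that did not enter were Ndufs5, Ndufb4, Cox6b2, Cox6a2, Cox8b, Cox7b2, Cox4i2, Cox8c, Ndufa4l2, Atp5g2, Atp5l-ps1 and Atp5l2.

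**Figure D1:**
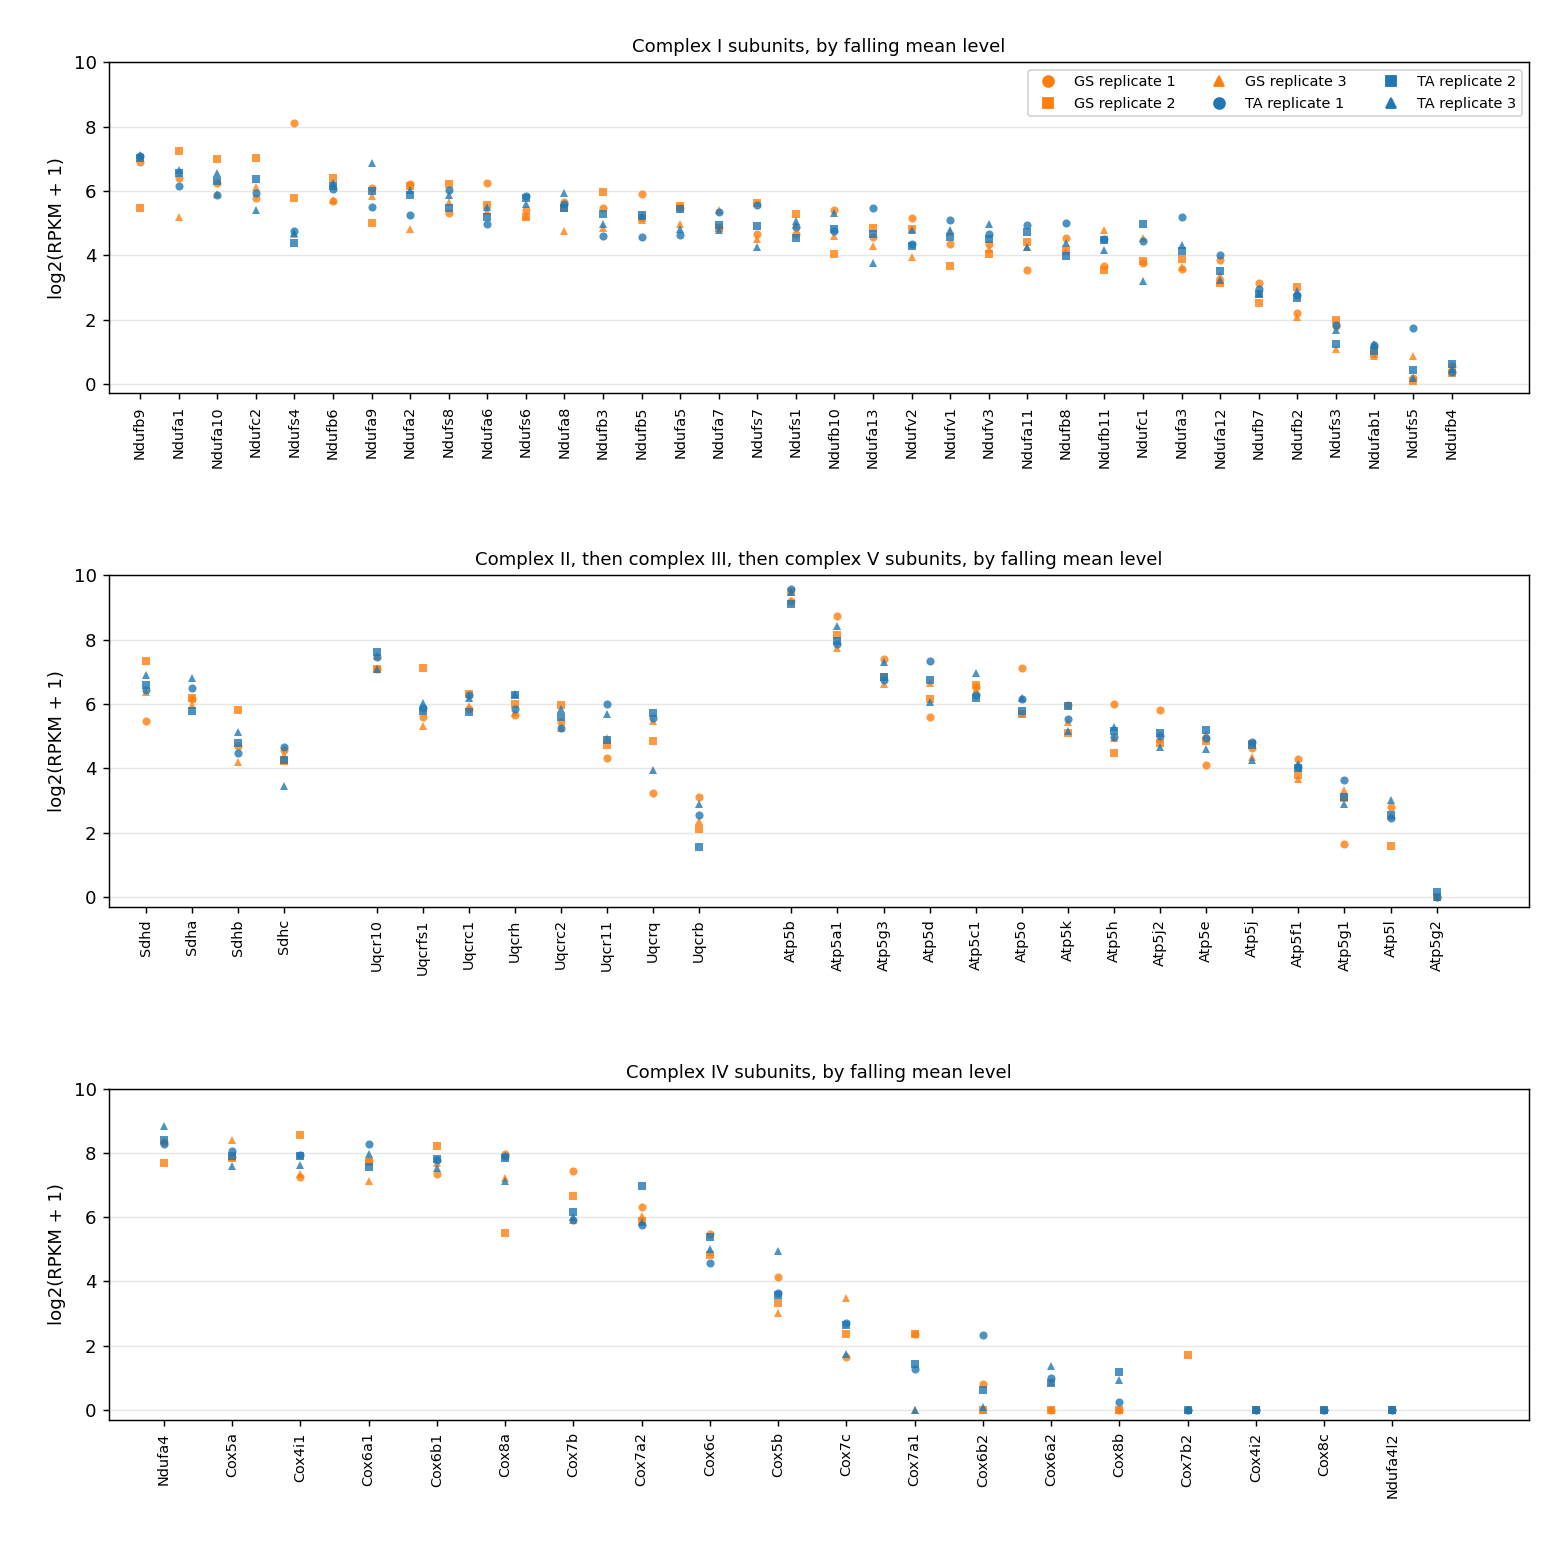
Levels of 81 subunits in the 6 libraries, as log2(RPKM + 1). Orange symbols are GS libraries and blue symbols TA libraries, with 1 symbol per library, and subunits are ordered by mean level within a complex. Symbols of both muscles are mixed in most subunits, Atp5b is the highest at a mean of 658 RPKM, and 3 complex IV isoforms lie at 0.

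Complex I, the NADH dehydrogenase, has nuclear-encoded catalytic core subunits that carry the flavin and iron-sulfur clusters. Levels are given here in GS replicates 1, 2 and 3 and then in TA replicates 1, 2 and 3, as for every member below. Ndufv1, which holds the flavin that accepts electrons from NADH, read 19.3, 11.6 and 25.5 RPKM in GS and 33.6, 22.8 and 26.5 RPKM in TA. Its partner Ndufv2 read 34.8, 27.0 and 14.5 RPKM in GS and 19.5, 18.6 and 26.3 RPKM in TA. Ndufs1, the iron-sulfur subunit of the NADH module, read 24.4, 38.0 and 29.9 RPKM in GS and 28.2, 22.1 and 32.7 RPKM in TA. In none of these genes did the TA values all lie above or below the GS values. Ndufs7 read 24.3, 48.2 and 21.8 RPKM in GS and 45.9, 28.8 and 18.2 RPKM in TA, and Ndufs8 read 39.2, 73.9 and 49.2 RPKM in GS and 63.9, 43.1 and 57.8 RPKM in TA; both carry iron-sulfur clusters close to the quinone site. Six-library means of these 5 core subunits ranged from 23.2 RPKM for Ndufv1 to 54.5 RPKM for Ndufs8. By reference length they ranged from 27.5 RPKM for Ndufv2 to 70.7 RPKM for Ndufs7. Ndufs3, also a core subunit, stood far lower at 2.45, 2.95 and 1.11 RPKM in GS and 2.56, 1.36 and 2.16 RPKM in TA.

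The 29 accessory subunits of complex I had a median level of 32.0 RPKM, beside 29.2 RPKM for the 7 core subunits. Ndufb9 was the highest, at 118, 43.7 and 128 RPKM in GS and 134, 130.3 and 139 RPKM in TA. Its GS replicate 2 value was the only one of the 6 under 100 RPKM. Ndufb4 was the lowest of the complex, at 0.461, 0.260 and 0.303 RPKM in GS and 0.280, 0.519 and 0.363 RPKM in TA, on a sum of 48 net reads. The 2 ends of the complex were thus 317-fold apart by mean RPKM. The sum over all 36 complex I subunits was 1287 ± 60.5 RPKM in TA against 1318 ± 257 in GS (SD, n = 3 each).

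Complex II, succinate dehydrogenase, is made wholly from nuclear genes. Sdha, the flavin subunit that oxidises succinate, read 70.1, 72.5 and 62.1 RPKM in GS and 90.1, 54.4 and 112 RPKM in TA. Sdhb, which carries the iron-sulfur clusters, read 25.1, 55.5 and 17.2 RPKM in GS and 21.3, 26.4 and 34.2 RPKM in TA. Of the membrane anchors, Sdhd read 43.6, 162 and 82.5 RPKM in GS and 86.6, 95.7 and 118 RPKM in TA, with both the lowest and the highest value in GS libraries, and was the highest of the complex. By reference length it stood at 102 RPKM and Sdha at 103 RPKM, nearly level. Sdhc was the lowest of the complex, at 22.7, 17.8 and 20.2 RPKM in GS and 24.4, 18.3 and 9.95 RPKM in TA. TA and GS values overlapped in all 4 genes, and their sum was 230 ± 39.8 RPKM in TA against 217 ± 79.5 in GS (SD, n = 3 each).

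Complex III, the cytochrome bc1 complex, held 8 matched subunits. The Rieske iron-sulfur subunit Uqcrfs1 read 47.9, 138 and 38.9 RPKM in GS and 58.2, 53.7 and 64.6 RPKM in TA, with GS replicate 2 above every other library. The core proteins were steadier. Uqcrc1 read 55.9, 77.7 and 60.3 RPKM in GS and 77.5, 52.4 and 72.7 RPKM in TA. Uqcrc2 read 42.2, 61.2 and 37.0 RPKM in GS and 37.1, 47.3 and 56.4 RPKM in TA. Their coefficients of variation over the 6 libraries were 17.0% and 21.5%. The small accessory subunit Uqcr10 was the highest of the complex, at 134, 134 and 180.3 RPKM in GS and 177, 194 and 135 RPKM in TA, and Uqcrb, which binds near the quinone site, was the lowest, at 7.63, 3.32 and 4.12 RPKM in GS and 4.82, 1.96 and 6.45 RPKM in TA. The sum over the 8 genes was 502 ± 21.0 RPKM in TA against 448 ± 83.5 in GS (SD, n = 3 each).

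Complex IV, cytochrome c oxidase, was the complex with the highest typical level. Without its 8 tissue isoforms, 11 subunits had a median of 175 RPKM, and 6 of the 11 reached 100 RPKM. The corresponding medians were 30.2 RPKM for complex I, 53.4 RPKM for complex II, 54.9 RPKM for complex III and 36.1 RPKM for complex V. By reference length complex IV stood at 175 RPKM and complex V at 90.5 RPKM, above complex II at 80.6, complex III at 64.1 and complex I at 45.0 RPKM, so the place of complex V depends on the length used. Ndufa4, named for complex I and now counted as a complex IV subunit, was the highest on the deposited length, at 319.5, 207 and 328 RPKM in GS and 309, 339.9 and 451 RPKM in TA. By reference length Cox6a1 and Cox5a, at 267 and 266 RPKM, lay just above Ndufa4, at 263 RPKM. Cox5a, which has no tissue isoform, had a mean of 249 RPKM. Cox7c, also a single-form subunit, was the lowest of the 11, at 2.12, 4.17 and 10.3 RPKM in GS and 5.50, 5.30 and 2.36 RPKM in TA; by reference length Cox5b, at 9.23 RPKM, lay under Cox7c, at 10.4 RPKM. The sum over the 11 genes was 1677 ± 73.7 RPKM in TA against 1561 ± 80.9 in GS (SD, n = 3 each).

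Complex V, the ATP synthase, held both the highest and, but for the tissue isoforms, the lowest subunit. The catalytic F1 beta subunit Atp5b read 595, 721 and 588 RPKM in GS and 769.6, 554 and 720.3 RPKM in TA, with a coefficient of variation of 13.6%. The F1 alpha subunit Atp5a1 followed on the deposited length, at 429.5, 284 and 214 RPKM in GS and 233, 246 and 340.2 RPKM in TA. By reference length the c-ring gene Atp5g3, at 386 RPKM, lay above Atp5a1, at 369 RPKM. Alpha and beta are present in equal number in the enzyme. Atp5b overlaps Baz2a, Mir677 and SNORD59.1 in the table, and is among 28 of the 92 members that overlap another gene. Whether counting used strand is not given, so reads at all 28 are uncertain. The part of overlap in their values was not tested. The 5 F1 subunits had a median of 91.8 RPKM and the 4 stalk subunits a median of 29.7 RPKM, or 190.1 and 87.6 RPKM by reference length. Atp5e, the smallest F1 subunit, had a mean of 27.6 RPKM, or 115 RPKM by reference length. The sum over the 15 genes was 1542 ± 156 RPKM in TA against 1507 ± 202 in GS (SD, n = 3 each).

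Tissue isoforms separated sharply, and in every pair the same form was the higher in 6 of 6 libraries. Cox4i1, the regulatory subunit of most tissues, read 151, 374 and 160.4 RPKM in GS and 243, 239.9 and 198 RPKM in TA, and its lung form Cox4i2 was listed at 0 in all 6. Cox6a1 read 212, 209 and 139 RPKM in GS and 306, 187 and 251 RPKM in TA, whereas the heart and skeletal muscle form Cox6a2 read 0, 0 and 0.809 RPKM in GS and 0.995, 0.808 and 1.57 RPKM in TA. Cox7a2 read 78.1, 57.3 and 64.9 RPKM in GS and 52.7, 125 and 56.4 RPKM in TA, and its muscle form Cox7a1 read 4.12, 4.18 and 0 RPKM in GS and 1.44, 1.67 and 0 RPKM in TA. The muscle forms thus made up 0.320% of the Cox6a pair and 2.55% of the Cox7a pair by mean RPKM. Cox8a read 249, 44.1 and 147 RPKM in GS and 238, 229.8 and 138 RPKM in TA, the muscle form Cox8b read 0, 0 and 0 RPKM in GS and 0.181, 1.26 and 0.921 RPKM in TA, and the testis form Cox8c was listed at 0 throughout. GS replicate 2 held the lowest Cox8a value.

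The other testis forms, Cox6b2 and Cox7b2, had low six-library means as well, at 0.902 and 0.374 RPKM. Cox6b1 read 163, 296 and 203 RPKM in GS and 217, 222 and 182 RPKM in TA, and Cox6b2 read 0.762, 0 and 0 RPKM in GS and 4.04, 0.551 and 0.0550 RPKM in TA on a sum of 46 net reads. Cox7b read 173, 99.5 and 59.2 RPKM in GS and 59.7, 70.2 and 62.6 RPKM in TA, and Cox7b2 had reads in GS replicate 2 alone, 24 net reads at 2.24 RPKM. Ndufa4, given above, was paired with the hypoxia-induced Ndufa4l2, which was listed at 0 in every library. Among the c-ring genes, Atp5g3 read 168, 114 and 97.0 RPKM in GS and 106, 113 and 159 RPKM in TA, Atp5g1 read 2.10, 7.42 and 9.09 RPKM in GS and 11.5, 7.54 and 6.36 RPKM in TA, and Atp5g2 had 1 net read, in TA replicate 2. Atp5g1 made up 5.48% of the Atp5g3 and Atp5g1 sum. Other annotated genes hold 99.7% of the coding words of 50 bases of Atp5g1 and 100% of those of Atp5g2, but 0% of those of Atp5g3. The part of this in the c-ring values was not tested.

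An exact two-sided paired permutation test over the 6 libraries gave p = 0.03125 for each of the 10 pairs, and the same value after Benjamini-Hochberg adjustment over the 10. That is the smallest p this design can give, and with any library left out the smallest possible p is 0.0625, so no pair then passes. Only the direction is read from it: in 9 of the 10 pairs the lower form was at 0 in at least 2 libraries, so the size of a log difference there depends on the pseudocount. Cox7a2 over Cox7a1 was 4.89 ± 1.07 (SD, n = 6) on the log2(RPKM + 1) scale and 6.28 with a pseudocount of 0.1. For Atp5g3 over Atp5g1, with reads for both in every library, it was 4.02 ± 0.98 (SD, n = 6) and 4.22. Coding sequences of the paired genes were identical at 51.7% to 67.4% of aligned bases in the reference.

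TA replicate 3, the library with the high muscle markers, held the muscle forms at 1.57 RPKM or less. There the muscle actin Acta1 was at 84.9 RPKM, the cardiac actin Actc1 at 55.3 RPKM and the embryonic myosin Myh3 at 43.2 RPKM. Other myosins there were Myh8 at 19.1 RPKM and Myh1, Myh2 and Myh4 at 0, 0.221 and 0.758 RPKM. In the same library Cox6a2 was at 1.57 RPKM, its highest value, on 34 of its 60 net reads. Cox8b was at 0.921 RPKM there, on 11 of its 18 net reads, under the 1.26 RPKM of TA replicate 2. Cox7a1 was at 0 in TA replicate 3. The highest Cox7a1 values were those of GS replicates 1 and 2, where the muscle markers summed to 0.320 and 5.35 RPKM. In pooled cells, a few cells with much RNA and many cells with little cannot be told apart. The part of muscle RNA in the low values of the muscle forms was not tested.

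**Figure D2:**
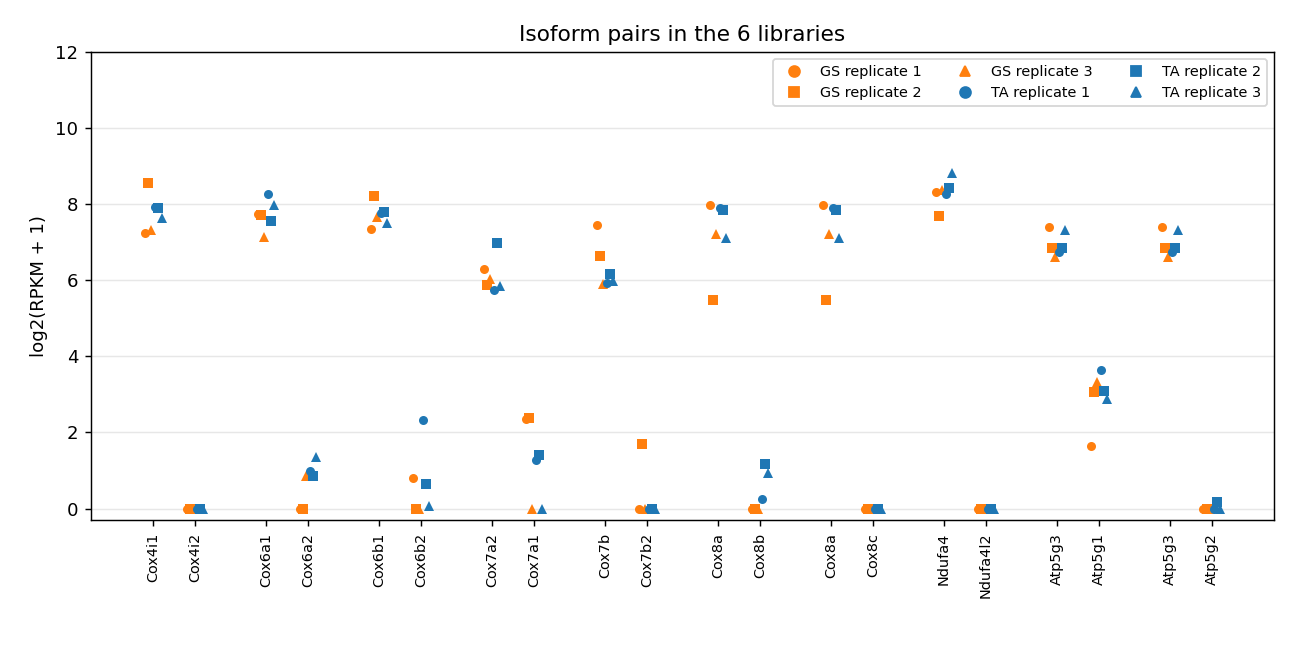
Levels of the 10 isoform pairs in the 6 libraries, as log2(RPKM + 1). The widely expressed form is at the left, except in the c-ring pairs. These have Atp5g3 at the left and genes for the same mature protein on both sides. Orange symbols are GS libraries and blue symbols TA libraries, and Cox8a and Atp5g3 appear in 2 pairs each. The right-hand form lies below the left-hand form in all 6 libraries of every pair, and Cox4i2, Cox8c and Ndufa4l2 lie at 0.

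Some obligate subunits, with no tissue form to replace them, stood at very low values, and these values came with coding letters that other annotated genes also hold. In the GENCODE reference transcripts of GRCm38, each coding sequence was divided into words of 50 bases, and a word counted as shared if another, non-overlapping annotated gene held it. Of 74 subunits other than tissue isoforms, 40 had no shared coding word, and their median level was 59.2 RPKM. A further 21 had a shared share above 0 and under 50%, with a median of 37.4 RPKM. The remaining 13 had at least 50% of their words shared, with a median of 4.95 RPKM. They were Atp5f1, Atp5g1, Atp5g2, Atp5h, Atp5l, Cox5b, Cox6c, Cox7c, Ndufa12, Ndufab1, Ndufb4, Ndufs5 and Uqcrb.

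Mean levels under 10 RPKM were found for 11 of the 74: 8 of the 13 with at least 50% shared, 2 of the 21 and 1 of the 40. Spearman's rho between the shared share and the mean level was -0.51 across the 74 genes, which share the same 6 libraries and are not independent replicates. By reference length rho was -0.39 and the medians were 66.7 RPKM with no shared word, 71.4 RPKM with under 50% and 7.63 RPKM with at least 50%, so only the last set lay apart. The low values of Cox7c, Ndufb4, Atp5l and Uqcrb are shown with their letters because every coding base printed for them lies in a word that another annotated gene also holds. Cox4i1, with no such word, is shown for contrast. The first 189 coding bases of the spliced reference transcript follow, 5′ to 3′, with bases inside a shared word in capitals; the gene spans on GRCm38 are chr13:86044816-86046904 (minus strand), chr16:37647170-37654453 (minus strand), chr9:44912557-44920742 (minus strand), chr13:66900617-66905378 (minus strand) and chr8:120668222-120674207 (plus strand).
Cox7c: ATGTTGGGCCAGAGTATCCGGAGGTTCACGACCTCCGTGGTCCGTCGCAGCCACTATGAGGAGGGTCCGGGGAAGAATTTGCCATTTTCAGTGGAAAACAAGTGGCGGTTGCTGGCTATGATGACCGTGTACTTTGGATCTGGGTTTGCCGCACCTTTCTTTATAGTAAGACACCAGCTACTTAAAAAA
Ndufb4: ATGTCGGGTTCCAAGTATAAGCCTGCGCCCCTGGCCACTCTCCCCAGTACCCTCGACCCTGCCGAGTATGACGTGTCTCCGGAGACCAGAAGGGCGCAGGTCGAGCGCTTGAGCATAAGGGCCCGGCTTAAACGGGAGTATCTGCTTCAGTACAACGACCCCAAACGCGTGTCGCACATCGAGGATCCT
Atp5l: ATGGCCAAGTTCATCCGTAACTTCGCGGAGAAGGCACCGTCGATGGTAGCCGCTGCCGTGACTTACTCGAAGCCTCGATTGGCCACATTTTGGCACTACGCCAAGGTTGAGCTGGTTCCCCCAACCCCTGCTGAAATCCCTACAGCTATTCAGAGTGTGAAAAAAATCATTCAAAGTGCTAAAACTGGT
Uqcrb: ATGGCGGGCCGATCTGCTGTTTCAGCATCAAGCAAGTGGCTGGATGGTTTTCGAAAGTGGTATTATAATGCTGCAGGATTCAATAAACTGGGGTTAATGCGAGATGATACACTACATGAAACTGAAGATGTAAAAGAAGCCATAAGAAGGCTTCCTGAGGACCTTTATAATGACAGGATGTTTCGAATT
Cox4i1: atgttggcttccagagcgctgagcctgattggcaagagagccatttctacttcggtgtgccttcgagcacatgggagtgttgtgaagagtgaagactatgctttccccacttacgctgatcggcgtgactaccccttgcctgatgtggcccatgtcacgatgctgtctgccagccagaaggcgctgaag

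All 189 coding bases of Cox7c, the whole of its coding sequence, were in capitals, and its mean was 4.95 RPKM. Ndufb4 and Atp5l each shared 100% of their coding words and averaged 0.364 and 4.86 RPKM. Uqcrb shared 72.9% and averaged 4.72 RPKM. Genes sharing a word anywhere in the transcript numbered 3 for Cox7c, 3 for Ndufb4 and 4 for Uqcrb, all pseudogenes. For Atp5l they numbered 13, of which 12 are pseudogenes. The coding share takes all other genes together. Ndufab1, the mitochondrial acyl carrier protein, shared 99.8% and averaged 1.11 RPKM, and Ndufs5 shared 72.5% and read 0.139, 0.0589 and 0.826 RPKM in GS and 2.36, 0.353 and 0.141 RPKM in TA. Ndufs3, the low core subunit above, shared 47.8%. The sources used here do not say how reads with several possible origins were counted, and the part of shared letters in these values was not tested.

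A high share did not always come with a low value. Atp5h, a stator stalk subunit, shared at least 50% of its coding words and averaged 36.1 RPKM, and Cox6c averaged 32.5 RPKM. By reference length Atp5h stood at 84.6 RPKM and Cox6c at 230.3 RPKM. Conversely, Ndufb7 shared no word and averaged 6.19 RPKM, and Ndufb2 shared 1.13% and averaged 5.27 RPKM. In both of these the deposited length was long: 4522 bases for Ndufb7, whose reference transcript has 623, and 5628 bases for Ndufb2, whose reference transcript has 455. Recomputed on the reference length, Ndufb7 stood at 45.0 RPKM and Ndufb2 at 65.2 RPKM. Levels of single subunits in this table therefore depend on the gene length used as well as on reads.

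**Figure D3:**
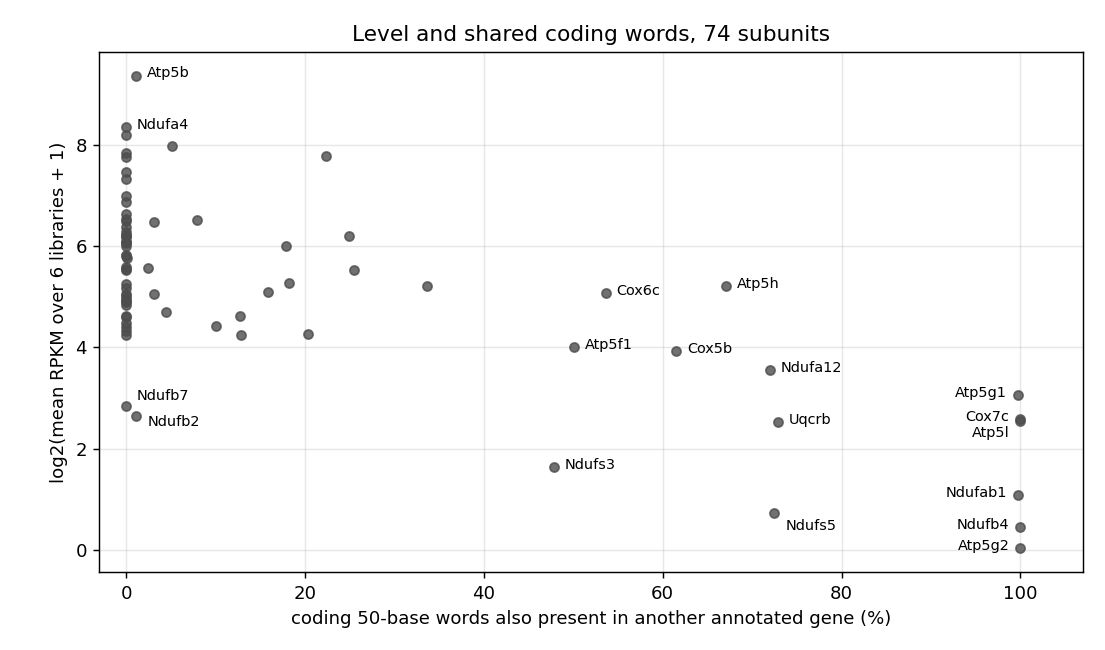
Mean level over 6 libraries, as log2(mean RPKM + 1), against the percentage of coding words of 50 bases that another annotated gene also holds, for 74 subunits. Each point is a gene, and genes at 40% or more, under 10 RPKM or over 300 RPKM are named. The 13 genes at 50% or more lie at or under 36.1 RPKM.

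No member differed between TA and GS at an adjusted p under 0.05 in limma's moderated test on log2(RPKM + 1), against 33 of 10828 genes tested (0.305%; 0.175% with TA above GS, 0.129% with GS above TA). At an unadjusted p under 0.05, 1 of the 80 members (Uqcr11) lay higher in TA, where 8.30% of all tested genes did, and 1 (Ndufs4) lay higher in GS, where 2.12% did. Log2 fold changes, TA minus GS, were positive for 52 members and negative for 28, with a median of 0.10 beside 0.24 for all tested genes, so that the members' median lay 0.13 below it. With each library centred on its median the members' median was -0.10, and with quantile normalization -0.03, so no direction is given for the family. All 3 TA values lay above all 3 GS values in 4 members (Ndufa3, Ndufv3, Ndufs6 and Ndufb9, all complex I accessory subunits), where 13.1% of all tested genes did so, and the reverse held for 0 members, against 3.48%. With median centring these counts became 1 and 3, and with quantile normalization 1 and 1.

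The median log2 fold change by complex was 0.15 for 34 tested complex I subunits, 0.07 for 4 of complex II, 0.11 for 8 of complex III, 0.03 for 12 of complex IV and 0.03 for 14 of complex V. For the 4 Ndufaf assembly factors, which help build complex I but are not part of it, it was 0.41. The smallest adjusted p among the 80 was 0.461 in limma's test. Summed over the 74 subunits other than tissue isoforms, the level was 5239 ± 175 RPKM in TA against 5051 ± 518 in GS (SD, n = 3 each), and GS replicate 3 was the lowest at 4462 RPKM.

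**Figure D4:**
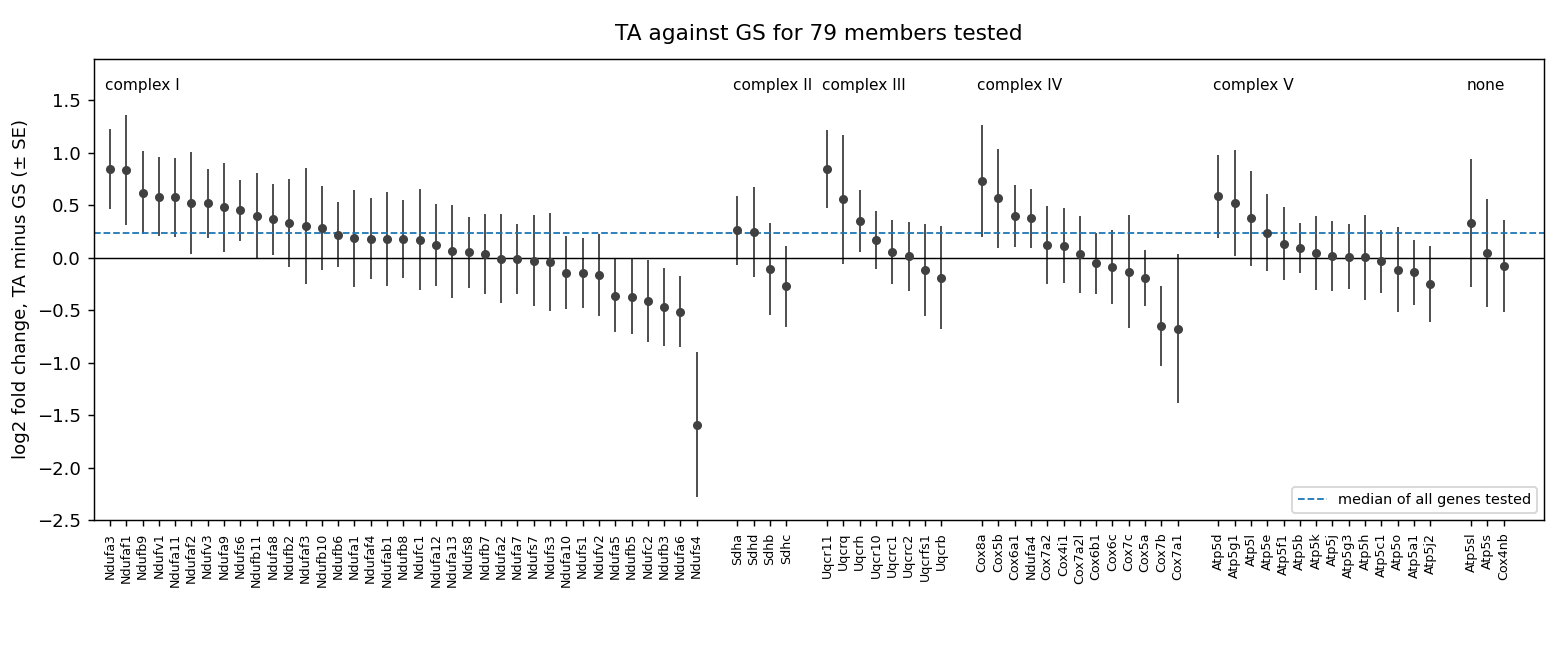
Log2 fold change of TA over GS with its standard error for 79 of the 80 members tested, by complex, from limma on log2(RPKM + 1). Assembly factors are drawn with complex I and Cox7a2l with complex IV, and the dashed line is the median of all genes tested, 0.24. Ndufs4 lies lowest at -1.59, and no member passed the adjusted threshold.

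Ndufs4, an accessory subunit of complex I whose loss causes Leigh syndrome, had the smallest p. It read 277, 54.1 and 24.5 RPKM in GS and 25.8, 19.7 and 24.7 RPKM in TA. The GS replicate 1 value was 5.12-fold the next highest, and GS replicate 3 lay among the TA libraries. Its log2 fold change was -1.59 ± 0.69 (SE), with an unadjusted limma p of 0.0424 and an adjusted p of 0.461. Without GS replicate 1 the log2 fold change was -0.63. Ndufs4 was also the only member in either of the authors' lists of differing genes, which hold 395 genes higher in TA (1.07% of the table) and 334 higher in GS (0.907%). For Ndufs4 the authors' deposited table on the GS side lists a GS over TA ratio of 5.865, with a p-value of 0.000117 and an adjusted p of 0.0246, at chromosome 13, 115078003 to 115178302 on mm9. In the authors' deposited table the RPKM was 128 in GS and 21.9 in TA.

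Uqcr11, a small subunit of complex III, was the member with the next smallest p. It read 19.2, 25.7 and 29.6 RPKM in GS and 62.6, 28.7 and 50.1 RPKM in TA, and TA replicate 2 lay under GS replicate 3. The log2 fold change was 0.85 ± 0.37 (SE), with an unadjusted limma p of 0.0440 and an adjusted p of 0.461. Ndufa3 read 11.0, 13.8 and 11.4 RPKM in GS and 35.6, 16.5 and 18.9 RPKM in TA, with all TA values above all GS values and a log2 fold change of 0.85 ± 0.38 (SE; limma adjusted p = 0.481). TA replicate 1 was the highest library in both genes. Cox7b, given above, was lower in TA by value, at -0.65 ± 0.38 (SE; limma adjusted p = 0.601), and GS replicate 3 lay under every TA library.

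The remaining members of the 8 with the smallest p had limma adjusted p of 0.624 to 0.628. Ndufaf1, an assembly factor of complex I, read 3.08, 17.8 and 10.6 RPKM in GS and 16.2, 18.1 and 14.4 RPKM in TA, GS replicate 1 being the low value. Ndufv3, which sits in the NADH module, read 19.4, 15.4 and 17.4 RPKM in GS and 24.1, 21.8 and 30.5 RPKM in TA. Ndufs6, a zinc-binding accessory subunit, read 41.5, 35.8 and 36.5 RPKM in GS and 56.1, 53.4 and 47.4 RPKM in TA, with means of 52.3 ± 4.43 RPKM in TA against 37.9 ± 3.13 in GS (SD, n = 3 each). Ndufb9, given above, had all GS values under the TA values, and without GS replicate 2, the low value, its log2 fold change was 0.13 in place of 0.62. None of these differences passed the adjusted threshold.

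Across libraries the members kept their order of level more closely than genes at large. Spearman's rho across the 80 members ran from 0.81 to 0.96 over the 15 library pairs, with a median of 0.90, and from 0.65 to 0.86 with a median of 0.73 over all tested genes. These are correlations across genes, which are not independent replicates, and carry no test. Most tested genes were lower than the members, and genes of matched level were not compared. Pairs within TA gave the members 0.90 to 0.93, and pairs within GS 0.84 to 0.88. GS replicate 1 held the highest value of 20 members (25.0%, against 12.2% of all tested genes), and GS replicate 2 held the lowest value of 22 (27.5%, against 28.4%). As a share of net reads all 92 members together made up 1.92%, 1.49% and 1.47% in GS replicates 1, 2 and 3, and 1.54%, 1.52% and 1.51% in TA replicates 1, 2 and 3.

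**Figure D5:**
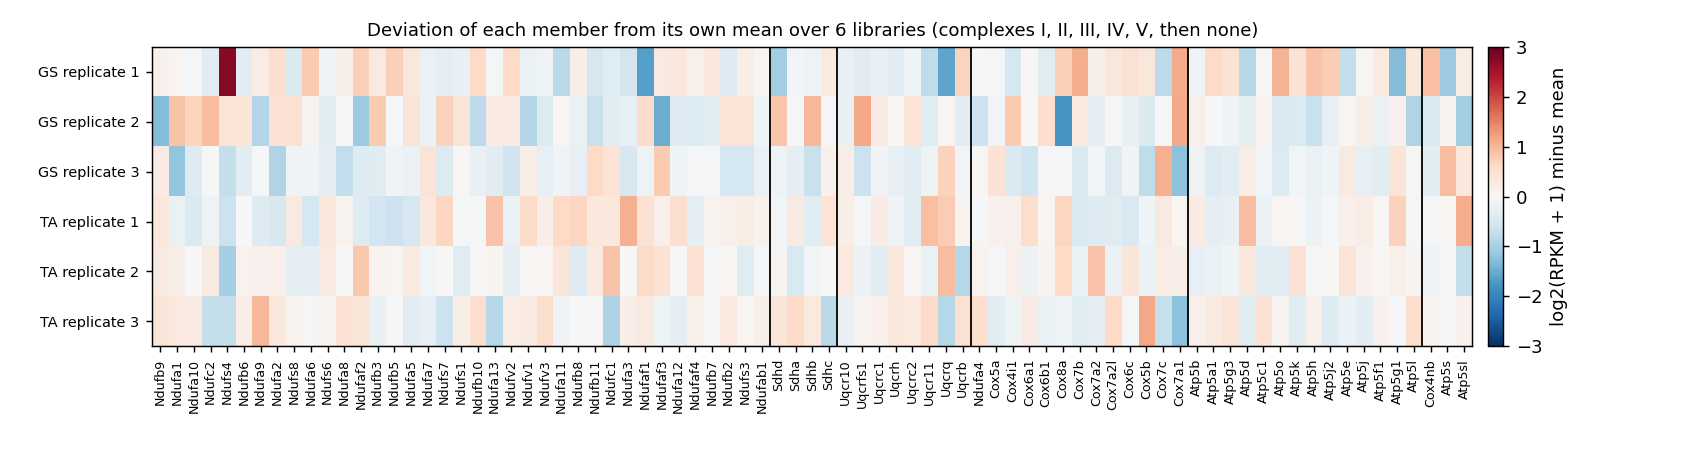
Deviation of 79 of the 80 tested members from its own six-library mean of log2(RPKM + 1), with members in columns by complex (I, II, III, IV, V, then none) and libraries in rows. Red is above and blue below the mean. The strongest cell is Ndufs4 in GS replicate 1, at 277 RPKM, against 19.7 to 54.1 RPKM in the other libraries.

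Genes that act with the chain but fall outside the name rule were counted from fixed lists. Of 7 electron carriers and related genes, all tested, 0 were called by limma and 2 were higher in TA at an unadjusted p under 0.05, as were 8.30% of all tested genes. These were Cyc1, the cytochrome c1 of complex III, with 127 ± 17.8 RPKM in TA against 80.8 ± 12.8 in GS, and Etfb, a subunit of the electron transfer flavoprotein, with 24.9 ± 8.87 against 7.55 ± 4.58 RPKM (SD, n = 3 each). Somatic cytochrome c, Cycs, read 4.19, 1.79 and 1.32 RPKM in GS and 1.62, 2.23 and 2.45 RPKM in TA. Shared coding words were counted for the members only, and so not for Cycs. Of 29 assembly factors outside the rule 26 were tested, 0 were called, and Cox11 and Bcs1l were higher in TA at an unadjusted p under 0.05, a share near that of all tested genes. The median log2 fold changes of the lists were 0.04 and 0.22, beside 0.24 for all tested genes.

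Regulators and enzymes of the tricarboxylic acid cycle also gave 0 genes called by limma. Of 13 transcription factors and co-activators of respiratory genes, 10 were tested. Ppargc1a, the co-activator PGC-1 alpha, read 22.1, 54.1 and 22.3 RPKM in GS and 14.6, 8.63 and 21.3 RPKM in TA, higher in GS at an unadjusted limma p of 0.0434 (adjusted p = 0.461). Tfam, which packages and transcribes mitochondrial DNA, read 1.18, 0.217 and 1.33 RPKM in GS and 2.94, 2.52 and 4.89 RPKM in TA, higher in TA at an unadjusted limma p of 0.0272 (adjusted p = 0.422). Of 16 cycle enzymes 15 were tested, and Idh3b, a subunit of NAD-dependent isocitrate dehydrogenase, had 91.8 ± 15.5 RPKM in TA against 53.5 ± 7.34 in GS (SD, n = 3 each; limma adjusted p = 0.420). At an unadjusted p under 0.05, 10.4% of all tested genes passed in either direction.

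Promoters were searched for the sites of NRF1 and GABP, the factors for which respiratory genes are best known. RefSeq windows on GRCm38.p6 of 300 bases, 250 before and 50 after the gene start, matched 71 of the 92 symbols. The NRF1 core GCGCATGCG, or CGCATGCGC on the other strand, was in 9 of the 71 (12.7%). Of all 27025 genes with a window, 527 held it (1.95%), a gene with several windows counting once. The GABP motif ACTTCCGG, or CCGGAAGT on the other strand, was in 5 (7.04%) and in 1164 of all genes with a window (4.31%). Uqcr11 alone held both, against 0.218% of all genes with a window. By complex, the NRF1 core was in 2 of 32 matched complex I genes, 0 of 3 of complex II and 2 of 5 of complex III. It was in 1 of 14 of complex IV and 3 of 13 of complex V. The 4 tissue isoforms matched held neither motif.

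Windows of 3 members are printed to show where the core lies in an abundant complex IV subunit and in 2 complex I subunits. Each gives the 250 bases before the gene start on the gene's strand, 5′ to 3′, with the NRF1 core, in either form, in capitals. The spans are chr5:115348959-115349208 (minus strand), chr17:56717512-56717761 (plus strand) and chr2:36049339-36049588 (minus strand).
Cox6a1: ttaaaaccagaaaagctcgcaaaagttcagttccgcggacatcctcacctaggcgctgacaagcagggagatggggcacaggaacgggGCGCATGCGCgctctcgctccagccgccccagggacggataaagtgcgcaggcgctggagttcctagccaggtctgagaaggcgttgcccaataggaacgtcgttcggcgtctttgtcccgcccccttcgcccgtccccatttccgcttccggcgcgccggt
Ndufa11: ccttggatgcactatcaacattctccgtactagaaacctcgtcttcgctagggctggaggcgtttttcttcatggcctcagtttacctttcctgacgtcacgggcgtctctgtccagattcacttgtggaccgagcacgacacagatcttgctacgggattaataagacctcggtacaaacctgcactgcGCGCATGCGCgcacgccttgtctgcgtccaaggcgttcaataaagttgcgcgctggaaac
Ndufa8: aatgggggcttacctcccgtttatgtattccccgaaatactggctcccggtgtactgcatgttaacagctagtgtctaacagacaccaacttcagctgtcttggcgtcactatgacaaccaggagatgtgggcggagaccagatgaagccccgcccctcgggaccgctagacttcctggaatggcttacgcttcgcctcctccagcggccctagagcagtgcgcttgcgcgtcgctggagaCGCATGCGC

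In Cox6a1 the core starts 162 bases before the gene start, in Ndufa11 60 bases and in Ndufa8 9 bases before it. The core and its reverse form overlap in Cox6a1 and Ndufa11, while the printed bases of Ndufa8 hold the reverse form only. Mean levels of the 3 genes were 217, 20.4 and 45.0 RPKM. By reference length they were 267, 99.6 and 45.0 RPKM, so Ndufa11 then lay above Ndufa8. A match of letters describes the window and is not a bound site, and no binding was measured in these libraries.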

How the data were processed

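Pools of 25 to 30 neurons gave 6 libraries. Per the labels' protocols, RNA was amplified into cDNA before sequencing. Tools named in the submitters' processing notes are Bowtie 0.12.9 and DESeq (no version), and the build is mm9. The sources used here do not give the annotation release, or how strand, overlapping genes and reads with several origins were handled. The authors deposited a table of net reads and RPKM for 36814 genes, with values below 0 in 683. Its numbers below 0 are not counts, so no count model was used and the fixed test on RPKM was kept. The authors also deposited 2 lists of differing genes with a signal and an RPKM per muscle, the GS to TA ratio (fold), a p-value and an adjusted p-value, per the file headers.

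Genes with a value below 0 were left out, 1 row per symbol was kept (the highest mean), and a mean RPKM of at least 1 left 10828 genes. The muscles were compared on log2(RPKM + 1), a scale that understates changes of low genes, by limma (version 3.58.1, R version 4.3.3), with group as the only term, a trended empirical Bayes variance and Benjamini-Hochberg adjustment over the 10828, and calls needed an adjusted p under 0.05. Isoform pairs were compared by an exact paired permutation test over libraries. The steps were tested on simulated data. Shared words were counted in GENCODE transcripts and promoters taken from RefSeq, both GRCm38. Coordinates of the files are mm9 and were never mixed with these. The members and lists were chosen with earlier results of these data known. Values were printed for isoform pairs, catalytic and core subunits, the highest and lowest member of each complex, called members, and the 8 with the smallest p. Alternatives were other pseudocounts, filters, scalings, treatment of repeated symbols and of values below 0, no variance trend, a replicate block and leaving out each library. Same-numbered TA and GS libraries did not deviate together, so the numbers were not taken as pairs. No protein sequence was used. Of the members, 1 entered the group values and is not reported here by itself.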

Additional observations from a re-analysis of the deposited data

How the results depend on the processing

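The count of members called at an adjusted p under 0.05 was 0 in each direction under every alternative run, leave-one-out included. The members' median log2 fold change was 0.10 and ran from 0.09 to 0.16 as libraries were left out; relative to all tested genes it was -0.13 and ran from -0.17 to -0.02. Members at an unadjusted p under 0.05, 1 in each direction as reported, changed as follows. Those higher in TA became 2 with a pseudocount of 0.1, 3 with no filter, 2 with a mean RPKM of at least 5, and 0 with median centring, quantile normalization, no variance trend or the replicate block. Those higher in GS became 0 with no filter and 0 with no variance trend. Leaving out a library gave 0 to 2 higher in TA and 0 to 3 higher in GS. Members with all 3 TA values above GS, 4 as reported, became 1 with median centring and 1 with quantile normalization, and the reverse became 3 and 1 in place of 0. The replicate block rests on numbers that do not pair the libraries: deviations of same-numbered libraries correlated at -0.074, -0.018 and -0.14.

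The 10 isoform pairs that passed became 0 to 0 with a library left out, because 5 libraries cannot give less than 0.0625; no direction changed. With a pseudocount of 0.1 all 10 passed, and the mean log2 difference over a form listed at 0 rose with it, from 8.32 to 11.63 for Ndufa4 over Ndufa4l2 and from 7.77 to 11.08 for Cox4i1 over Cox4i2. Medians by complex, here the mean over libraries of the per-library median, were 28.4 RPKM for complex I, 51.4 for II, 53.1 for III, 157 for IV and 36.1 for V. On the reference transcript length, chosen after the low values were seen, they became 43.2 for I, 72.0 for II, 63.4 for III and 95.0 for V. Over subunits with no shared coding word, chosen likewise, they became 37.9 RPKM for complex I and 109 RPKM for complex V, from fewer genes. Sums of 0 to 71 net reads behind the tissue isoforms and Atp5g2 limit their values.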

Other observations

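Some genes named for or related to the ATP synthase fell outside the 15 subunits counted. Atp5s and Atp5sl, relatives of coupling factor B, had mean levels of 6.28 and 1.46 RPKM. The median was 36.1 RPKM for the 15 complex V subunits. Atp5sl is named Dmac2 in the GENCODE reference and was counted here with no complex. Atpif1, which binds and inhibits the ATP synthase, was at 96.9 ± 30.3 RPKM in TA against 126 ± 66.8 in GS (SD, n = 3 each), with the highest value, 203 RPKM, in GS replicate 1. Usmg5, a small subunit of the ATP synthase dimer, was at 11.2 ± 4.77 RPKM in TA against 10.8 ± 4.39 in GS (SD, n = 3 each). TA and GS values of both overlapped.

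Among cycle enzymes, citrate synthase (Cs) was at 159 ± 28.7 RPKM in TA against 138 ± 30.7 in GS (SD, n = 3 each), and mitochondrial malate dehydrogenase (Mdh2) at 215 ± 72.9 and 147 ± 50.9 RPKM. The paired beta subunits of succinyl-CoA synthetase differed in level: Sucla2, the ATP-forming type, had a mean of 25.7 RPKM over the 6 libraries and Suclg2, the GTP-forming type, 0.192 RPKM. Suclg2 was under the filter and entered no test. Shared coding words were not counted for either gene.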
